A study of Mus musculus with 4 samples.

Results

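The histone lysine demethylases described here are 10 genes, Kdm1a, Kdm2a, Kdm2b, Kdm3a, Kdm3b, Kdm4a, Kdm4b, Kdm4c, Kdm5a and Kdm5b, found by their symbols among the 22667 genes of the expression table. All 10 passed the minimum of 75 reads summed over the libraries, as did 12497 genes in all. The cells were N2a, a mouse neuroblastoma line. They were given siRNA for 48 h, either a control with no target (siControl) or one that targets Arglu1 (siArglu1). They then received vehicle (Veh) or 100 nM of the synthetic glucocorticoid dexamethasone (Dex) for 4 h. Each of the 4 combinations has 1 library made from the mRNA of 3 cultures pooled, so that no pair of groups has replicates and no spread between cultures can be given. siRNA lowers Arglu1 without removing it, and all 4 groups are 1 cell line.

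Histone lysine demethylases take methyl groups off lysines of the histone tails and so edit the marks that chromatin-binding proteins read. Kdm1a, also called LSD1, is a flavin-dependent amine oxidase that acts on mono- and dimethylated H3K4, whereas the other 9 carry a JmjC domain, which uses iron and 2-oxoglutarate. In neural cells Kdm1a is known for repressing genes together with the CoREST proteins, and the Kdm4 and Kdm5 families for acting on H3K9 and H3K36 and on H3K4, respectively.

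Reads on genes came to between 66074574 and 86541444 per library, and TMM scaling factors lay between 0.984 and 1.01. Arglu1, the targeted gene, had 10165 reads in Veh and 11825 in Dex with siControl and 2637 in Veh and 3254 in Dex with siArglu1, that is, log2 ratios of -1.92 and -2.15 for knockdown in vehicle and in Dex. All 12 neuroblastoma markers looked up passed the read minimum, with a summed level of 1460 and 1485 cRPKM (reads per mappable kilobase, corrected for library size) in the siControl libraries and 1949 and 1932 in the siArglu1 libraries. With knockdown, 8 of the 12 had counting intervals above 0 in both pairs, where 33.3% of all tested genes did. For Th and Ddc both intervals lay below 0, as for 33.6% of all genes. By the size rule given below, Dbh (log2 ratio 2.0 in vehicle and 2.01 in Dex), Phox2a (1.17 and 1.02) and Gata3 (1.16 and 1.54) were higher, while Th (-1.26 and -0.90) was lower. Of the smooth muscle markers, 5 of 7 were higher by that rule in both knockdown pairs. Of all 12497 tested genes, 875 were higher by it in vehicle and 773 in Dex. The 7 had a summed level of 11.45 cRPKM in Veh and 11.38 in Dex with siControl, and 200 in Veh and 184 in Dex with siArglu1. Myl9, Acta2 and Actg2 carried most of it, and Myh11 and Cnn1 were the others past the size. Tagln (0.71 in vehicle and 0.43 in Dex) did not reach the size, and Des (-0.18 and -0.25) went the other way. The 6 glial and immune markers summed to 0.47 to 0.63 cRPKM in every library, and Aif1, Aqp4, Ptprc and Olig1 had at most 2 reads in any of them. The part of these marker changes in any ratio below was not tested. In these bulk libraries, fewer cells with a transcript and less transcript per cell cannot be told apart.

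The levels of the 10 genes spanned more than an order of magnitude. Kdm1a was by far the highest, at 131 cRPKM in Veh and 129 in Dex with siControl and 107 in Veh and 103 in Dex with siArglu1, and its mean over the libraries exceeded that of 94.1% of the tested genes. Kdm4c was the lowest, at 4.71, 4.80, 2.94 and 2.96 cRPKM in the same order of libraries. The other 8 lay between 5.40 and 26.5 cRPKM in all libraries. In the siControl libraries the order from the top was Kdm1a, Kdm3a, Kdm4a, Kdm2b, Kdm5b, Kdm3b, Kdm4b, Kdm2a, Kdm5a and Kdm4c, the same in Veh and Dex. Neighbours in it lay close together, such as Kdm4b, at 10.3 and 9.88 cRPKM, and Kdm2a, at 9.84 and 8.99. In both siArglu1 libraries Kdm2a stood in the fifth place, after Kdm2b. The 10 genes together summed to 248 cRPKM in siControl Veh and 241 in siControl Dex against 185 in siArglu1 Veh and 192 in siArglu1 Dex.

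**Figure D1:**
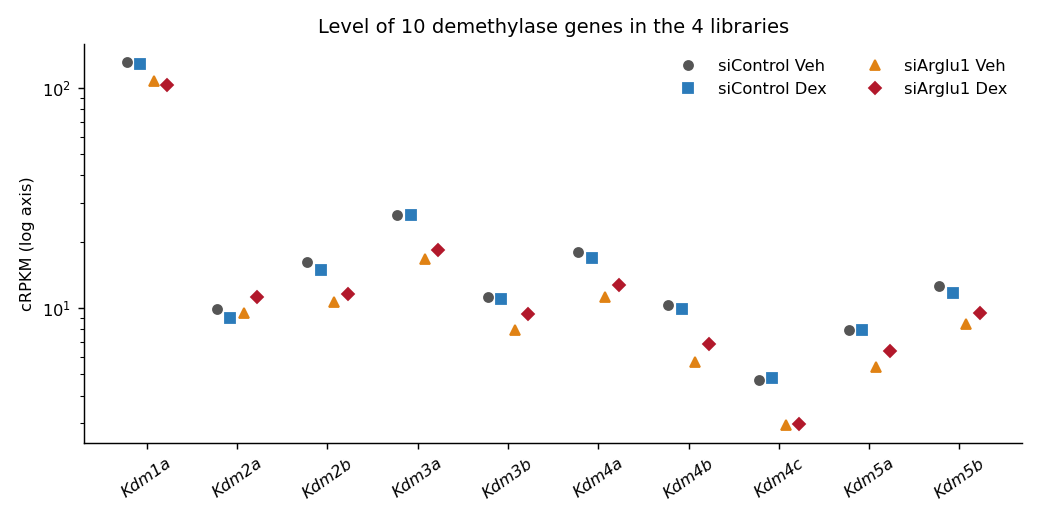
Level of each demethylase gene in cRPKM (log axis), with 1 symbol per library and no error bars, since each group is 1 library. Kdm1a lies at 103 to 131 cRPKM and Kdm4c at 2.94 to 4.80, and for 9 of the genes both siArglu1 libraries lie below both siControl libraries, Kdm2a being the exception.

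Knockdown was compared in vehicle (siArglu1 Veh over siControl Veh) and in Dex (siArglu1 Dex over siControl Dex), which share no library. Demethylase transcripts were lower after Arglu1 knockdown in both. The median log2 ratio of the 10 genes was -0.55 in vehicle and -0.35 in Dex, where that of all tested genes was 0.00 in each. In vehicle all 10 ratios were negative, and in Dex 9 were. With exact 95% intervals that cover counting error only, 9 of the 10 genes lay below 0 in both pairs, against 33.6% of all tested genes. Few were far below. By the size rule of 0.81 on the log2 scale, 1 of the 10 genes, Kdm4b, was lower in vehicle, where 8.77% of all genes were, and none of the 10 was lower in Dex, where 5.93% were, so that by this rule the share of members was near that of all genes.

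Demethylase transcripts are long, and the ratios moved with length across the transcriptome. The mappable length, computed from reads and cRPKM, ran from 2.96 kb for Kdm1a to 10.9 kb for Kdm5a, that is, from the 55.6th to the 99.0th percentile of the tested genes. Across 12484 genes of known length, Spearman's rho between length and the log2 ratio was -0.40 for knockdown in vehicle, -0.23 for knockdown in Dex, -0.16 for Dex in siControl and 0.54 for Dex in siArglu1; this is a description across genes of the same libraries, which are not independent replicates. Each knockdown comparison shares 1 library with each Dex comparison, so that the trends are not separate results. Knockdown in vehicle and Dex in siArglu1, for instance, share siArglu1 Veh. Because of the trends, each demethylase gene was set against the 500 tested genes nearest to it in length. Of the 3445 genes that were such a neighbour of at least 1 member, 50.7% had both knockdown intervals below 0, more than the 33.6% of all genes and fewer than the 9 of 10 members. The median log2 ratio of these neighbours was -0.26 in vehicle and -0.12 in Dex. The members lay below the median of their own neighbours by a median of -0.26 in vehicle and -0.28 in Dex, with 9 of 10 below it in each pair. Members were chosen by name and not by length. The choice was made with earlier results of these data known. No test over the members was made, and their 9 of 10 is a description.

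**Figure D2:**
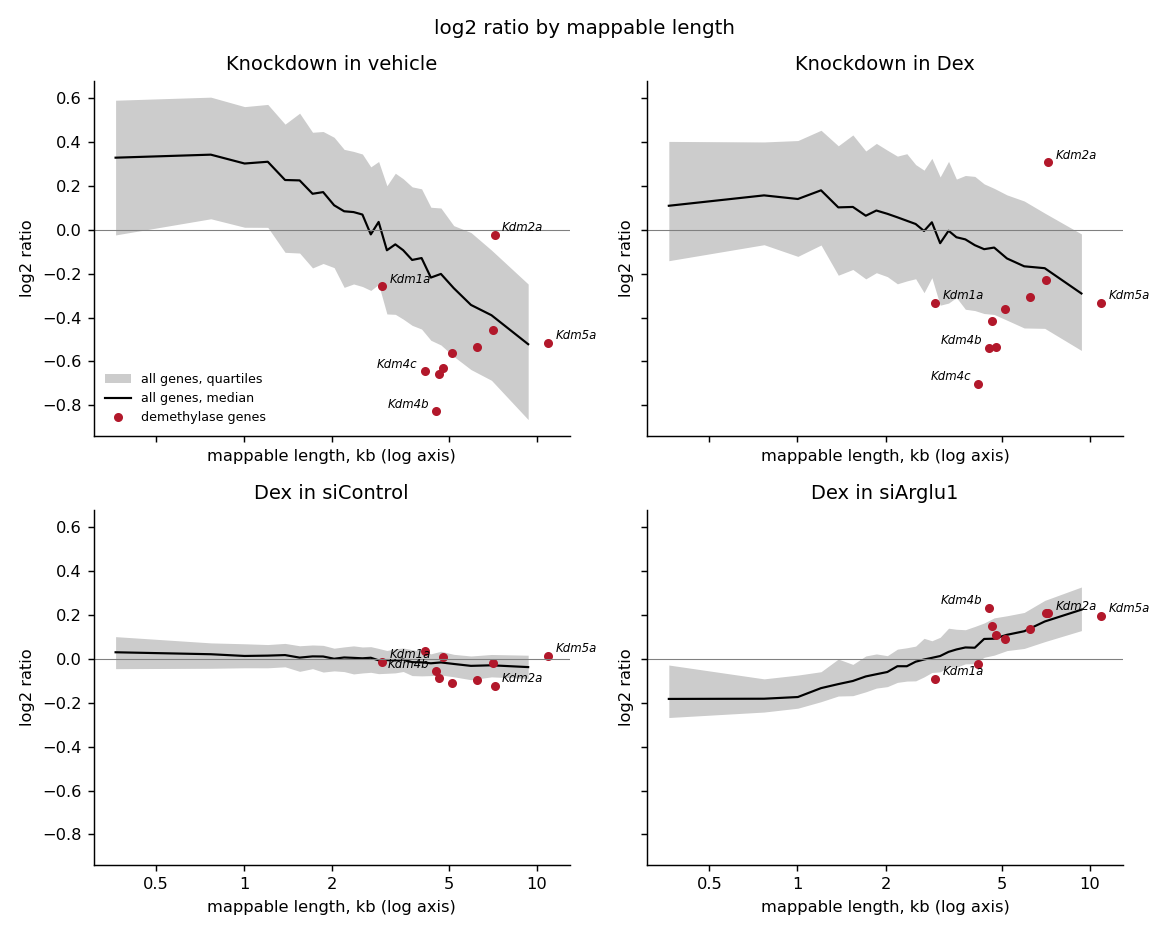
Log2 ratio (y axis) by mappable length in kb (log axis) in each of the 4 comparisons. The black line and the grey band are the median and the quartiles of all tested genes in 25 bins of equal size, and red points are the demethylase genes, some of them named. The line falls with length for knockdown and rises with length for Dex in siArglu1, and most red points in the knockdown panels lie below the line, with Kdm2a above it.

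An additive model of knockdown and Dex was fitted across all genes by edgeR's quasi-likelihood test to the 4 libraries (residual degrees of freedom: 1). It treats the vehicle and Dex pairs as repeats of the same knockdown effect. Its error comes from the difference between these pairs, moderated across genes, so its p-values measure no spread between cultures. For most of the 10 genes the knockdown ratio differed between the pairs, as given below. In it, 9 of the 10 genes were lower after knockdown at a Benjamini-Hochberg adjusted p of 0.05, against 30.9% of all genes and 47.2% of the length neighbours. The adjusted p of these 9 ran from 5.87e-13 for Kdm4b to 0.00187 for Kdm1a. Kdm2a, with a fitted log2 ratio of 0.14, had an adjusted p of 0.14. With DESeq2 in place of edgeR, 9 of the 10 were lower too.

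**Figure D3:**
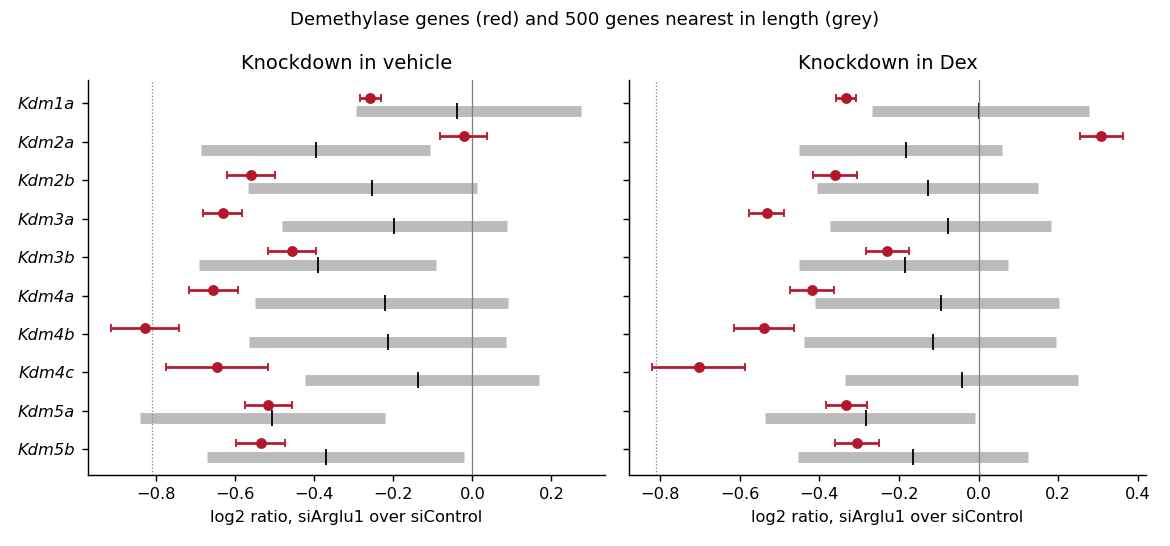
Log2 ratio of siArglu1 over siControl for each demethylase gene in vehicle (left) and Dex (right). Red points carry exact 95% intervals for counting error, grey bars are the quartiles and black ticks the median of the 500 genes nearest in length, and the dotted line is the size rule at -0.81. Kdm3a, Kdm4a, Kdm4b and Kdm4c lie left of the grey bars in both panels, Kdm3b and Kdm5a lie near the ticks, and Kdm2a lies to their right.

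Kdm1a, the amine oxidase, had 25607 reads in Veh and 27181 in Dex with siControl and 21086 in Veh and 26349 in Dex with siArglu1. The log2 ratio of knockdown was -0.26 (95% interval -0.28 to -0.23) in vehicle and -0.33 (-0.36 to -0.31) in Dex, that is, 83.6% and 79.4% of the siControl level. Its length neighbours had medians of -0.04 and 0.00, and 27.4% and 21.2% of them had a lower ratio than Kdm1a. It is the shortest of the 10 and the one for which length neighbours as a group showed almost no change.

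The Kdm2 genes encode demethylases of H3K36 that bind unmethylated CpG islands through a CXXC zinc finger, and Kdm2b brings a variant Polycomb complex there. The pair went different ways. Kdm2a had 4677 reads in Veh and 4605 in Dex with siControl and 4535 in Veh and 6963 in Dex with siArglu1. Its log2 ratio of knockdown was -0.02 (-0.08 to 0.04) in vehicle and 0.31 (0.25 to 0.36) in Dex, while its length neighbours had medians of -0.40 and -0.18. Kdm2a thus stood 0.37 and 0.49 above genes of similar length, of which 81.2% and 87.2% had a lower ratio.

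Kdm2b had 5453, 5419, 3643 and 5154 reads in the order of libraries used above. The siArglu1 libraries were lower, with log2 ratios of -0.56 (-0.62 to -0.50) in vehicle and -0.36 (-0.42 to -0.31) in Dex, and medians of -0.25 and -0.13 for its length neighbours. Per length, the ratio of Kdm2a to Kdm2b was 0.612 (95% interval 0.588 to 0.636) in siControl Veh and 0.606 (0.583 to 0.630) in siControl Dex, but 0.888 (0.850 to 0.928) in siArglu1 Veh and 0.963 (0.929 to 0.999) in siArglu1 Dex. The intervals of both siArglu1 libraries lay above those of both siControl libraries. Exons of Rnf34 on the opposite strand cover 5.77% of the exon bases of Kdm2b in GENCODE M21, and since the counting is not stated to use strand, reads there cannot be assigned to one of the genes.

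The Kdm3 genes encode demethylases of mono- and dimethylated H3K9. Kdm3a, which is known as a hypoxia-responsive gene, had 8341 reads in Veh and 8995 in Dex with siControl and 5301 in Veh and 7598 in Dex with siArglu1, and was the second most abundant of the 10 in every library. Its knockdown ratio was -0.63 (-0.68 to -0.58) in vehicle and -0.53 (-0.58 to -0.49) in Dex, against -0.20 and -0.08 for the length neighbours. Kdm3b had 5216, 5522, 3745 and 5754 reads in the same order. Its ratio of -0.46 (-0.52 to -0.39) in vehicle and -0.23 (-0.28 to -0.18) in Dex differed by -0.06 and -0.05 from the medians of its length neighbours, -0.39 and -0.18. Kdm3b thus stood close to genes of its length, whereas Kdm3a differed from the medians of its own neighbours by -0.43 and -0.46. The ratio of Kdm3a to Kdm3b per length was 2.37 and 2.41 in the siControl libraries and 2.10 and 1.96 in the siArglu1 libraries. In GENCODE M21, a non-coding gene on the opposite strand covers 24.6% of the exon bases of Kdm3b.

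The Kdm4 genes encode demethylases of trimethylated H3K9 and H3K36, and all 3 described here were lower than most genes of similar length. Kdm4a had 5496 reads in Veh and 5543 in Dex with siControl and 3435 in Veh and 5070 in Dex with siArglu1. Its knockdown ratio was -0.66 (-0.72 to -0.59) in vehicle and -0.42 (-0.47 to -0.36) in Dex, against neighbour medians of -0.22 and -0.09. Kdm4b had 3091, 3186, 1714 and 2679 reads in that order. Its ratio of -0.83 (-0.91 to -0.74) in vehicle was the lowest of the 10, a level 1.77-fold lower, and the interval crosses the size of 0.81. In Dex the ratio of Kdm4b was -0.54 (-0.61 to -0.46), and its neighbours had medians of -0.21 and -0.11.

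Kdm4c, with the fewest reads of the 10, had 1289 in Veh and 1416 in Dex with siControl and 811 in Veh and 1062 in Dex with siArglu1. Its ratio was -0.65 (-0.77 to -0.52) in vehicle and -0.70 (-0.82 to -0.59) in Dex, where it was the lowest of the 10. It differed from the neighbour medians of -0.14 and -0.04 by -0.51 and -0.66, and 14.8% and 9.2% of the neighbours had a lower ratio. Within the family, the ratio of Kdm4a to Kdm4b per length was 1.75 and 1.71 in the siControl libraries and 1.97 and 1.86 in the siArglu1 libraries. That of Kdm4c to Kdm4b was 0.456, 0.486, 0.517 and 0.433 in the 4 libraries, with no order by knockdown.

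The Kdm5 genes encode demethylases of trimethylated H3K4. Kdm5a, which has the longest transcript of the 10, had 5705 reads in Veh and 6173 in Dex with siControl and 3928 in Veh and 5988 in Dex with siArglu1. Its knockdown ratio of -0.52 (-0.58 to -0.46) in vehicle and -0.33 (-0.38 to -0.28) in Dex hardly differed from the neighbour medians of -0.51 and -0.28. Of its neighbours, 67.4% had both intervals below 0, the highest share for any of the 10. With the trend on length removed from all ratios, Kdm5a stood at 0.06 in vehicle and -0.04 in Dex. Kdm5b had 5189, 5210, 3526 and 5148 reads and ratios of -0.54 (-0.60 to -0.47) and -0.31 (-0.36 to -0.25), against -0.37 and -0.17 for its neighbours. The ratio of Kdm5a to Kdm5b per length moved little, from 0.630 in siControl Veh to 0.679 in siControl Dex, and stood at 0.639 and 0.667 in siArglu1 Veh and siArglu1 Dex.

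**Figure D4:**
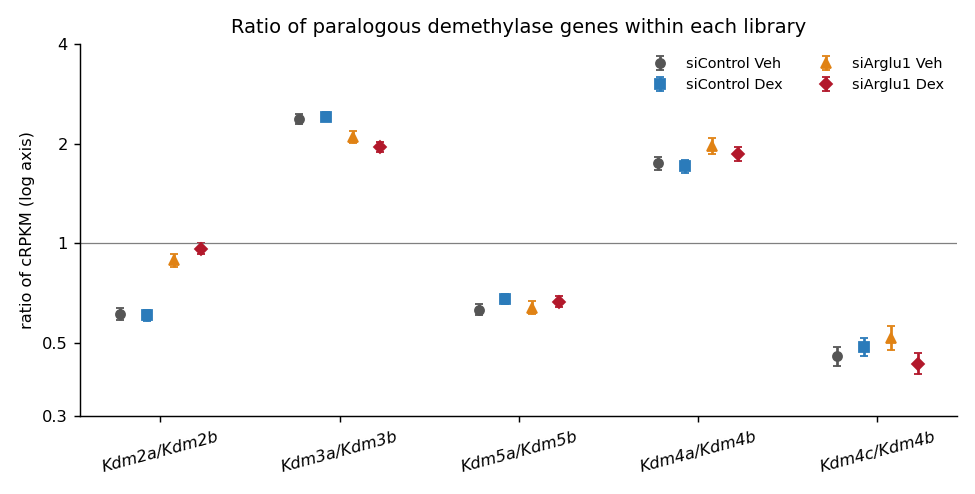
Ratio of the cRPKM of paralogous demethylase genes within each library (log axis), with exact 95% intervals for counting error. Kdm2a/Kdm2b rises from 0.606 and 0.612 in the siControl libraries to 0.888 and 0.963 in the siArglu1 libraries, Kdm3a/Kdm3b is lower in both siArglu1 libraries, and Kdm5a/Kdm5b stays between 0.630 and 0.679.

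The knockdown ratio was higher in Dex than in vehicle for 8 of the 10 genes. Their 95% intervals of the difference (a normal approximation on the log of the reads, counting error only) lay above 0. The share of all genes with such an interval was not computed, so the count is not read as particular to the members. The difference (Dex pair minus vehicle pair) was largest for Kdm2a, at 0.33 (0.25 to 0.41), followed by Kdm4b at 0.29 (0.18 to 0.40). It was -0.06 (-0.23 to 0.11) for Kdm4c and -0.08 (-0.11 to -0.04) for Kdm1a. Genes of similar length showed such a difference too, with neighbour medians of 0.01 for Kdm1a to 0.26 for Kdm5a. Relative to these medians the members ranged from -0.14 for Kdm4c to 0.19 for Kdm4b. With 1 library per group, none of these differences could be tested.

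By size, Dex changed the demethylase genes little. In siControl the log2 ratio of Dex over Veh lay between -0.12 (Kdm2a) and 0.04 (Kdm4c), with a median of -0.04, and none of the 10 genes reached 1 on the log2 scale, a size that 0.464% of all genes passed. In siArglu1 it lay between -0.09 (Kdm1a) and 0.23 (Kdm4b), with a median of 0.14, and again none of the 10 reached 1, which 0.392% of all genes did. By counting intervals, 4 of the 10 genes lay below 0 in siControl and 0 above. Of all 12497 tested genes 1729 lay below 0 there, and of the 3445 length neighbours 796. In siArglu1, 8 of the 10 lay above 0 and 1 below, where 3273 of all genes and 1811 of the length neighbours lay above. The median of the length neighbours was -0.02 in siControl and 0.11 in siArglu1, and members differed from the median of their own neighbours by a median of -0.03 and 0.01. The additive model fits 1 Dex effect to siControl and siArglu1, so that Dex ratios of opposite signs cancel in it. For Kdm2a, ratios of -0.12 in siControl and 0.21 in siArglu1 gave a fitted 0.04. The model thus cannot decide on a Dex effect that differs between siControl and siArglu1. In it, 0 of the 10 genes passed for Dex, where 1.04% of all genes did. Each member had an adjusted p of 0.999 there, and none had an unadjusted p under 0.05. Every comparison of knockdown shares a library with every comparison of Dex. Knockdown in vehicle shares siControl Veh with Dex in siControl and siArglu1 Veh with Dex in siArglu1. Knockdown in Dex shares siControl Dex and siArglu1 Dex with them in the same way. The values of knockdown and Dex therefore stand side by side here and were not set against each other.

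Among 18 other genes of demethylases or related JmjC proteins looked up, 15 were listed and 12 passed the read minimum. This list and the lists of partners were chosen with earlier results of these data known, and nothing is called particular to them. Of these 12, 8 had both knockdown intervals below 0 and 3 had both above 0, as had 33.6% and 33.3% of all tested genes and 43.1% and 26.4% of the genes nearest to them in length, and their median ratios were -0.49 in vehicle and -0.26 in Dex. In the additive edgeR model 7 were lower and 2 higher, where 30.9% of all genes were lower and the share that was higher was not computed. Hr, the hairless corepressor with a JmjC domain, had 571, 564, 224 and 352 reads in the order of libraries above and the lowest ratios, -1.32 (-1.56 to -1.10) in vehicle and -0.97 (-1.17 to -0.77) in Dex. Phf8, a demethylase of H3K9 and H4K20, had ratios of -0.97 and -0.87, so that both were past the size of 0.81 in both pairs. Kdm8 had the highest ratios, 0.48 and 0.59. Kdm1b, the paralog of Kdm1a, lay at 0.17 (0.04 to 0.30) and 0.43 (0.32 to 0.55), where Kdm1a was lower.

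Partners of the LSD1-CoREST complex, in which Kdm1a works with histone deacetylases, were lower for 9 of the 11 that were tested, by both intervals, and higher for 1. Of the genes nearest to them in length, 36.4% had both intervals below 0 and 31.6% had both above 0. Their median ratio was -0.33 in vehicle and -0.24 in Dex. Rcor1, the CoREST protein that holds Kdm1a to nucleosomes, had 7281 reads in Veh and 7223 in Dex with siControl and 2630 in Veh and 3866 in Dex with siArglu1. Its ratios of -1.45 (-1.51 to -1.38) and -1.19 (-1.25 to -1.13) were the lowest of the list and were past the size in both pairs, while Kdm1a itself stood at -0.26 and -0.33. Its paralogs Rcor2, at -0.33 and -0.24, and Rcor3, at -0.21 and -0.24, were closer to Kdm1a. Hmg20b had the highest ratios, 0.47 and 0.29.

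Of the 9 genes of the Polycomb complex that Kdm2b brings to CpG islands, 5 had both intervals below 0 and 2 had both above 0, against 34.0% and 33.1% of the genes nearest to them in length. The lowest in vehicle was Usp7, at -0.82 in vehicle and -0.70 in Dex, and the highest was Pcgf1, which pairs with the Bcor proteins in that complex, at 0.77 and 0.57. Of the 7 genes of the Kdm5 and SIN3 complexes, 3 had both intervals below 0 and 4 had both above 0, with none past the size, against 36.6% and 31.8% of the genes nearest to them in length. The lowest in vehicle was 2210018M11Rik, at -0.53 and -0.15, and the highest was Morf4l1, a chromodomain protein, at 0.46 and 0.25.

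Splicing was measured as the percent spliced in (PSI), the share of transcripts that hold an exon or use a splice site. The splicing tables held 132 events in the 10 genes, and 116 of them had a PSI in all 4 libraries and were scored LOW or better for coverage in 3 or more of them, among 57183 events of all genes. They were 51 simple cassette exons, 14 cassette exons with complex structure, 1 microexon, 33 alternative 3′ splice sites and 17 alternative 5′ splice sites. The share of demethylase events that changed was near that of all events or under it. At a ΔPSI of at least 15, 2 of the 116 events passed for knockdown in vehicle, where 1.96% of all events did, and 0 passed for knockdown in Dex, where 1.52% did. For Dex, 1 passed in siControl and 1 in siArglu1, where 0.719% and 0.948% of all events did. The median size of ΔPSI over the 116 events was 0.55, 0.44, 0.57 and 0.21 for knockdown in vehicle, knockdown in Dex, Dex in siControl and Dex in siArglu1, respectively, and between 103 and 108 of them differed by less than 5. Coverage was not equal: over the sites of these events the highest score, SOK, was given to 71 in each siControl library but to 64 in siArglu1 Dex and 31 in siArglu1 Veh.

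The exons on which this account turns are shown with 20 bases of the flanking exons in lower case and the exon itself in capitals. The sequences are those of GENCODE M21 transcripts of the same gene in which the lengths of the exon and of both flanking introns equal those of the event, and coordinates are those of the splicing table, in the build mm9 that the submitters' processing notes name.
Kdm1a 12-nt microexon, chr4:136119353-136119364: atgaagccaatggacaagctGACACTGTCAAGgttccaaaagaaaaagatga
Kdm1a 60-nt exon, chr4:136137955-136138014: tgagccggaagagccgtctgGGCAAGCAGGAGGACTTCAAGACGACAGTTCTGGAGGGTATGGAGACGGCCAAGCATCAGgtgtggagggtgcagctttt
Kdm5a 163-nt exon, chr6:120344105-120344267: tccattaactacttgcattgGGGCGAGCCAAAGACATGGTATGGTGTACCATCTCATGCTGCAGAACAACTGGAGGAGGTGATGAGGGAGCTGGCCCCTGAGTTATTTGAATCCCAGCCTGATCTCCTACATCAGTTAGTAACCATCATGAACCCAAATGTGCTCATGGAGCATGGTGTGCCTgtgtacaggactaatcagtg

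The 12-nt microexon of Kdm1a is the one known for its inclusion in neurons, where it gives a neuronal form of LSD1. It is coding and a multiple of 3 in length. In N2a its PSI was 2.53 in Veh and 3.56 in Dex with siControl and 1.91 in Veh and 1.80 in Dex with siArglu1, with the score SOK in each. It was thus left out of nearly all Kdm1a transcripts in all 4 libraries, and the largest ΔPSI was -1.76, for knockdown in Dex. Of the 298 microexons compared in the whole series, 30 fell by at least 15 and 3 rose for knockdown in vehicle, and 30 fell and 5 rose for knockdown in Dex. The Kdm1a microexon, at 2.53 and 3.56 in siControl, could not fall by 15, so these counts do not bear on it.

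The 60-nt coding exon of Kdm1a, the other alternative exon known in this gene, was included at an intermediate level. Its PSI was 46.0 in Veh and 45.8 in Dex with siControl and 48.6 in Veh and 49.7 in Dex with siArglu1, all with the score SOK. The ΔPSI of knockdown was 2.53 in vehicle and 3.94 in Dex. A 53-nt exon of Kdm4a, for which no matching transcript structure was found, was as steady, at 32.1, 33.0, 33.3 and 32.7 in that order, although with the score LOW in siArglu1 Veh. In Kdm2b, a 3′ splice site that extends an exon by 57 nt was used at 80.9, 82.0, 81.2 and 76.6 PSI on 128 to 267 junction reads. Of the 116 events of the 10 genes, 7, or 6.03%, had a PSI of 10 to 90 in all 4 libraries, these 3 among them, where 8.07% of all events did.

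Kdm5a held the event with the best coverage among those past 15. Its 163-nt exon is coding exon 12 of 28 in the matched transcript and encodes a stretch of the JmjC domain, and its length is not a multiple of 3, so that a transcript without it changes frame. The PSI was 95.4 in siControl Veh and 93.4 in siControl Dex, both with the score SOK, and 78.1 in siArglu1 Veh and 92.6 in siArglu1 Dex, both with the score OK. Only siArglu1 Veh stood apart. The ΔPSI was -17.3 for knockdown in vehicle and -0.80 for knockdown in Dex, and -2.06 for Dex in siControl against 14.5 in siArglu1. An 82-nt exon of the same gene, which lies in a transcript with no coding sequence annotated, had a PSI of 28.8, 32.7, 42.5 and 36.2, higher in both siArglu1 libraries, by 13.6 in vehicle and 3.53 in Dex.

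Kdm4c held the other event past 15 for knockdown in vehicle, a 161-nt exon, partly coding, at chr4:73908713-73908873. Its PSI was 89.4 in siControl Veh (score LOW), 85.1 in siControl Dex (OK), 71.8 in siArglu1 Veh (N, the lowest score) and 100 in siArglu1 Dex (LOW). The ΔPSI of knockdown was -17.6 in vehicle and 14.9 in Dex, with opposite signs, and that of Dex in siArglu1 was 28.2. The siArglu1 Veh value enters both of the differences past 15. In the tables of alternative 3′ and 5′ sites, where reads are given, the score N stood for 0 to 9 junction reads and LOW for 20 to 39. For cassette exons no reads are given, and no interval could be computed.

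Kdm4b had the remaining event, a 3′ splice site that adds 6 nt, at chr17:56534213-56534312. Its PSI was 18.5 on 70 junction reads in siControl Veh, 34.6 on 78 in siControl Dex, 25.9 on 27 for siArglu1 with Veh, and 25.6 on 39 for siArglu1 with Dex. The ΔPSI of Dex in siControl was 16.1, but the exact binomial 95% intervals, 10.3 to 29.7 and 24.2 to 46.2, overlapped, and both siArglu1 values fell between those of the siControl libraries. The competing site that adds 27 nt had a PSI of 75.6, 62.8, 74.1 and 74.4. No event of Kdm1a, Kdm2a, Kdm2b, Kdm3a, Kdm3b, Kdm4a or Kdm5b passed 15 in any of the 4 comparisons.

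**Figure D5:**
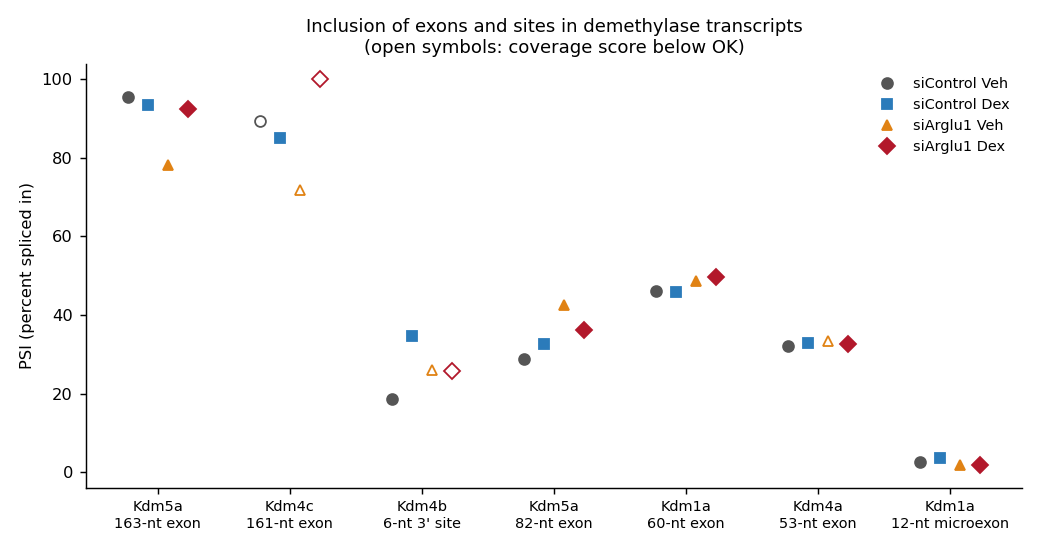
PSI (y axis, 0 to 100) of 7 exons and splice sites of demethylase genes, with 1 symbol per library and open symbols where the coverage score is below OK. The 60-nt exon of Kdm1a and the 53-nt exon of Kdm4a stay within 4 PSI over the libraries, the 163-nt exon of Kdm5a is lower in siArglu1 Veh alone, and the Kdm4c exon ranges from 71.8 to 100 on open symbols.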

How the data were processed

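mRNA of 3 N2a cultures was pooled per group, and the authors sequenced 1 mRNA-enriched TruSeq V2 library per group. The authors deposited a count of reads per gene, not normalized, and cRPKM, an RPKM corrected for mappability. The deposited splicing tables give the PSI as a percent with a coverage score in words, and the paper names vast-tools for them. The submitters' processing notes name mm9 and Bowtie. Versions and the strand setting: not given in the sources used here. Ratios that the authors put in 2 unnamed columns were not used.

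Genes with at least 75 reads over the 4 libraries were scaled by TMM (edgeR 4.0.16, R 4.3.3) and compared as log2 CPM with a prior count of 1. The size rules were 0.81 for knockdown and 1 for Dex. Exact 95% intervals cover counting error only, and 66074574 to 86541444 reads per library set their width. Within a pair, each with 1 library a side, nothing was tested. An additive quasi-likelihood model of the 4 libraries, and the same in DESeq2 1.42.0, assume that knockdown acts alike in Veh and Dex. Mappable length was derived from reads, library size and cRPKM. Events compared had a PSI in each library and were scored LOW or better in 3, and the size was a ΔPSI of 15.

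Named were all 10 members, genes of the pathway lists past the size in both knockdown pairs with the highest and lowest of each such list, and member events past 15; marker genes, Rcor2, Rcor3, Kdm1b and the steady events were added after their values were seen. Members and lists were chosen with earlier results of these data known. Scripts were tested on simulated data. Alternatives were other scalings, minimums, sizes, length neighbours and coverage rules.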

Additional observations from a re-analysis of the deposited data

Results flagged for a closer look

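For 4 of the 10 genes the log2 ratio of Dex over Veh was negative in siControl and positive in siArglu1, with each counting interval on its own side of 0. Each group is 1 library, and the difference between siControl and siArglu1 was not tested. The share of all genes with such intervals was not computed. The difference between a gene's Dex ratios equals that between its knockdown ratios, given above, and is not a separate result. For Kdm2a the ratio was -0.12 in siControl and 0.21 in siArglu1, where the 500 genes nearest in length had medians of -0.03 and 0.17. For Kdm2b the values were -0.11 and 0.090, with neighbour medians of -0.03 and 0.11. For Kdm4a they were -0.087 and 0.15, with neighbour medians of -0.01 and 0.09. For Kdm5b they were -0.094 and 0.14, with neighbour medians of -0.03 and 0.13. Genes of similar length thus had medians of the same signs, and all of these ratios are small beside the size of 1 used for Dex.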

How the results depend on the processing

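No paired analysis was possible because each group has 1 library, so that groups share fewer than 2 replicate numbers, and no replicate could be left out. The additive model, which takes Veh and Dex as blocks of the knockdown, comes nearest to one. The direction of the members' median held for knockdown under every alternative. With the trend on length removed, the median was -0.27 in vehicle and -0.28 in Dex for knockdown and 0.0046 for Dex in siArglu1, 8 genes were negative in both knockdown pairs, and 0 passed the size in vehicle. That alternative turned the sign of Kdm5a (0.058) and Kdm2a (0.38) for knockdown in vehicle, of Kdm3b (0.016) for Dex in siControl and, for Dex in siArglu1, of Kdm2b (-0.015), Kdm5a (-0.048) and Kdm5b (-0.0066). At a size of 0.5, 7 members passed in vehicle and 3 in Dex for knockdown. The genes past the size in all, 1971, 1514, 58 and 49 for knockdown in vehicle, knockdown in Dex, Dex in siControl and Dex in siArglu1, became 4302, 3738, 1847 and 1351 with no minimum of reads and 4409, 3606, 367 and 458 at 0.5. For Dex in siControl and in siArglu1 they became 11 and 9 at a minimum of 400 reads and 35 and 27 with a prior count of 5. Other scalings left the members' medians within their counting intervals. With other sets of length neighbours, the median difference from them was -0.26 to -0.24 for knockdown in vehicle and -0.28 to -0.25 in Dex. The member events past the size, 2, 0, 1 and 1 in the same order, became 5, 4, 2 and 4 at a ΔPSI of 10, which 4.40%, 3.66%, 2.16% and 2.73% of all events passed. At a ΔPSI of 25 they were 0 for knockdown in vehicle, 0 for Dex in siControl and 1 for Dex in siArglu1. Of all events, 0.381%, 0.0874% and 0.187% passed 25 in these comparisons, respectively. With OK or better in all 4 libraries, 76 member events were compared. Those past the size were 1 for knockdown in vehicle and 0 for Dex in siControl and in siArglu1. Of all events so scored, 1.22%, 0.230% and 0.237% passed, respectively. With no minimum on the score, 126 member events were compared, and those past the size were 2 in each of the 4 comparisons. Of all events, 6.85% and 6.10% then passed for knockdown in vehicle and in Dex. For Dex in siControl and in siArglu1, 5.30% and 5.73% did. The share of member events was thus under that of all events there. Without the minimum, the events of all genes rose from 57183 to 78286 and those of members from 116 to 126. Poorly covered events thus weigh more among all events, and the shares were not compared at equal coverage. Beyond the alternatives, the precision is set by reads for the ratios, with Kdm4c the least certain, and the spread between cultures is unknown.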
